A study of Mus musculus with 4 samples.

Results

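The genes described here are 10 genes of the MHC class I antigen processing pathway: the heavy chains H2-K1 and H2-D1, the light chain B2m, the peptide transporter Tap1 and Tap2, the loading factor Tapbp, the immunoproteasome subunits Psmb8, Psmb9 and Psmb10, and the transactivator Nlrc5. They were chosen by name for their place in the pathway, and all 10 of 10 were found among the 53465 genes listed in the RNA-seq count table and had enough counts to be tested. MDSCs, a mixed population of immature myeloid cells that build up during tumor growth and suppress T cells, were isolated with magnetic beads against Gr-1, an epitope of Ly-6G and Ly-6C, from the spleens of male BALB/c mice, 6 weeks old when injected with 4T1 cells, a mammary carcinoma line of that strain. The cells were then kept in vitro for 6 h in control medium (control, 2 libraries) or in medium containing EGCG, a green tea catechin, at 5 μg/mL (EGCG treatment, 2 libraries). Both groups therefore came from tumor-bearing mice, and no cells of healthy mice were part of the RNA-seq. The labels place the sorting on day 21 of tumor growth, whereas the methods of the study give an earlier time. Separate mice are not named for the libraries in either source, so p-values measure only the spread between these libraries, which may be technical.

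MHC class I molecules carry peptides from inside the cell to its surface, where CD8+ T cells read them. Proteins are cut by the proteasome, whose standard catalytic subunits can be replaced by immunoproteasome subunits. The TAP transporter moves the peptides into the endoplasmic reticulum, tapasin holds the empty class I molecule at the transporter, and a heavy chain folds with β2-microglobulin around the peptide. Interferon-γ is the best known inducer of these genes, and NLRC5 is a transactivator that works with the RFX, CREB and NF-Y factors at class I promoters. In MDSCs, class I molecules allow the cells to present antigen to the CD8+ T cells that they suppress.

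H2-K1 and H2-D1 lie on chromosome 17 in the MHC, H2-K1 (ENSMUSG00000061232) at chr17:33996017-34000347 on the minus strand and H2-D1 (ENSMUSG00000073411) at chr17:35262730-35267499 on the plus strand (GRCm38). Tapbp (ENSMUSG00000024308, chr17:33915899-33929292) lies near H2-K1. Psmb9 (ENSMUSG00000096727, chr17:34181987-34187764, minus strand), Tap1 (ENSMUSG00000037321, chr17:34187553-34197225), Psmb8 (ENSMUSG00000024338, chr17:34197721-34201454) and Tap2 (ENSMUSG00000024339, chr17:34203527-34216321) follow one another in a single cluster, in which all but Psmb9 are on the plus strand. The other 3 are outside the MHC. B2m (ENSMUSG00000060802) is at chr2:122147686-122153083 on the plus strand. Psmb10 (ENSMUSG00000031897) is at chr8:105935735-105938444 on the minus strand and Nlrc5 (ENSMUSG00000074151) at chr8:94434356-94527272 on the plus strand.

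Promoter sequences are shown because the class I genes are known for a shared promoter layout, and because NLRC5 acts there. RefSeq windows (GRCm38.p6), which run from 250 bases before to 50 bases after the start of transcription, matched 8 of the 10 genes, and Tap2 and Nlrc5 did not match. The 180 bases before the RefSeq start are given 5′ to 3′ on the strand of the gene for both heavy chains, the light chain and Psmb9. They lie at chr17:34000348-34000527 (minus strand) for H2-K1, chr17:35262914-35263093 (plus strand) for H2-D1, chr2:122147507-122147686 (plus strand) for B2m and chr17:34187331-34187510 (minus strand) for Psmb9. The RefSeq start is not always the end of the gene span given above. The stretches of H2-D1 and Psmb9 lie inside those spans, as do the windows of Tapbp and Psmb8. Capitals mark 4 motifs on either strand: AANNGAAA (the core bound by interferon regulatory factors), TGACG (the core bound by CREB-type factors), CCAAT (the core bound by NF-Y) and an NF-κB motif.
H2-K1: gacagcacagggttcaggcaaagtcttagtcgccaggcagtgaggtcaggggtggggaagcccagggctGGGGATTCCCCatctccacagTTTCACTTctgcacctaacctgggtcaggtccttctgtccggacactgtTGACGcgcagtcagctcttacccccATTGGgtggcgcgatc
H2-D1: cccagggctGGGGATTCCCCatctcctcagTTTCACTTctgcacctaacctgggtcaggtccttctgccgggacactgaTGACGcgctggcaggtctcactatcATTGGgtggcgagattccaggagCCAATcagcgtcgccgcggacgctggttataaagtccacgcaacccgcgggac
B2m: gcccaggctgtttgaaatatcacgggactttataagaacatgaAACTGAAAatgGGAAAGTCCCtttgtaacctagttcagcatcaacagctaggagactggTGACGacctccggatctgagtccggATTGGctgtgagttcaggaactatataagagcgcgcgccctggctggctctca
Psmb9: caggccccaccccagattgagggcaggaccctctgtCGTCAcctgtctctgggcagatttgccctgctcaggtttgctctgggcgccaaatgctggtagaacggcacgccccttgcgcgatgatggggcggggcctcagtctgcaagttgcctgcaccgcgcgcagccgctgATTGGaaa

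In the stretches shown for H2-K1, H2-D1 and B2m, the NF-κB motif and AANNGAAA were followed by TGACG and then by CCAAT in the direction of transcription, except that AANNGAAA came first in B2m. Each motif was searched on both strands, and no match of one overlapped a match of another. AANNGAAA was found in 3 of the 8 class I windows and in 23.9% of all 32817 windows of the same length. The NF-κB motif was found in the same 3 windows and in 4.5% of all windows. TGACG was found in 5 of 8 (20.8% of all) and CCAAT in 6 of 8 (37.4% of all). TTCNNNGAA, the core bound by STAT factors, was found in 1 of 8, that of Psmb8, and in 8.29% of all windows. The windows of Psmb9 and Tap1 lie on opposite strands and share 275 of their 300 bases, TGACG and CCAAT included, so they are not independent. These matches describe the reference sequence and are not measurements of binding in MDSCs.

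The totals were 17767318 and 17973695 counts in control replicates 1 and 2, and 18390385 and 18091684 in EGCG replicates 1 and 2. Over all 14682 tested genes, 22 passed an adjusted p of 0.05 (edgeR's quasi-likelihood test), 20 of them lower and 2 higher with EGCG. With 1 library left out, the number was 77 (without control replicate 1), 354 (control replicate 2), 118 (EGCG replicate 1) or 252 (EGCG replicate 2). Control replicate 2 was nearer to the EGCG libraries than control replicate 1 was. Its chi-square per gene was 6.70 against EGCG replicate 2 and 7.57 against EGCG replicate 1, compared with 12.4 and 16.04 for control replicate 1 and with 6.85 between the control libraries and 6.64 between the EGCG libraries. All 12 markers of MDSCs and neutrophils were detected, and their summed level was 48846 and 59013 CPM (the count of a gene relative to the library total, which was scaled by TMM) in control and 67037 and 58604 CPM with EGCG. Most of this sum came from S100a8 and S100a9. S100a8 was at 14461 and 18163 CPM in control and at 22838 and 19476.5 CPM with EGCG. S100a9 was at 22455 and 28293 CPM in control and at 31668 and 27007 CPM with EGCG. Markers of other cells were also found. The summed level of 7 B cell markers was 542 to 648 CPM and that of 8 macrophage markers 940 to 1014 CPM. Of the macrophage sum, Slc40a1 alone gave 562 and 625 CPM in control and 668 and 696 CPM with EGCG. It was the 1 macrophage marker that was higher with EGCG. The summed level of 6 monocyte markers was 786 to 913 CPM and that of 8 endothelial markers 99.7 to 135 CPM. Since nearly all nucleated cells carry class I molecules, each level below is a sum over all cells in the sample, in which fewer cells of a type and less RNA per cell cannot be told apart.

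None of the 10 class I genes passed the test (0 of 10, against 0.150% of all tested genes), and DESeq2 also called 0 of 10. Of the 10, 1 had an unadjusted p under 0.05 (12.2% of all tested genes), and it was lower with EGCG (7.02% of all were lower and 5.22% higher at that p). Their fitted log2 fold changes were split evenly, 5 lower and 5 higher with EGCG (49.4% of all tested genes were lower), with a median of -0.0038 beside 0.0031 for all tested genes. This split rested on single libraries: 2 of the 10 were lower without control replicate 2, with a median of 0.12, and 2 of the 10 without EGCG replicate 1. For the 9 genes other than Nlrc5, the 95% intervals of the log2 fold change lay between -0.24 and 0.32. In 8 of the 10 the control and EGCG libraries overlapped, whereas H2-D1 was higher and Nlrc5 lower in both EGCG libraries than in both control libraries (groups did not overlap for 42.7% of all tested genes, made up of 21.5% higher and 21.2% lower).

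**Figure D1:**
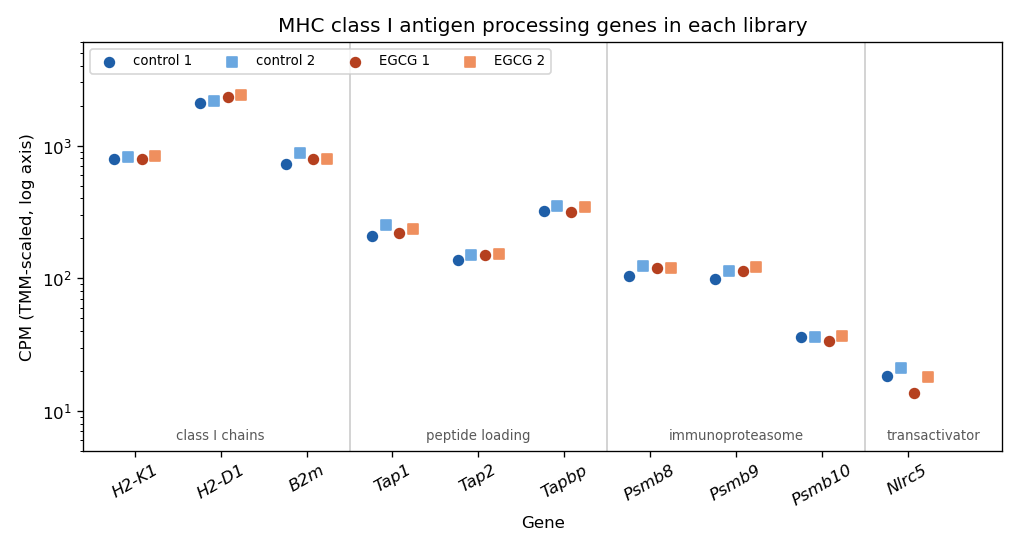
Level of each class I gene in each of the 4 libraries, in TMM-scaled CPM on a log axis, with 2 control and 2 EGCG libraries and the genes grouped by role. The points of the groups lie among each other for 8 genes, H2-D1 has both EGCG libraries above control, and Nlrc5 has both EGCG libraries below control.

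The heavy chains bind the peptide and meet the T cell receptor. H2-K1 was at 796 and 823 CPM in the control libraries and at 789 and 830 CPM in the EGCG libraries. The groups overlapped, with a mean of 809 ± 19.3 CPM in control and 810 ± 28.9 CPM with EGCG (SD, n = 2 each). Its log2 fold change was 0.00057 with a 95% interval of -0.16 to 0.16 (SE 0.076, adjusted p = 0.997). The interval corresponds to a fold between 0.893 and 1.12.

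H2-D1 was at 2098 and 2175 CPM in control and at 2316 and 2407 CPM with EGCG. Both EGCG libraries were above both control libraries. Its log2 fold change was 0.14 with a 95% interval of -0.03 to 0.32 (SE 0.080, unadjusted p = 0.0916, adjusted p = 0.503), which did not pass the test. H2-D1 and H2-K1 share sequence: 13.8% of the 31-base words (stretches of that length) of H2-D1 transcripts also occur in H2-K1 and 26.9% in any other gene, so the division of reads between these genes is uncertain. BALB/c mice carry the H2-d haplotype, whereas the reference genome carries H2-b, and BALB/c cells also carry H2-L, a D-like heavy chain that was not analysed here. The part of these differences in the heavy chain counts, including whether H2-L reads were counted on H2-D1, was not tested. The counts of 18 class I and class I-like heavy chain genes were also summed, with Mr1 and Cd1d1, which lie outside the MHC, among them. The totals were 67549 and 69080 in control and 70304 and 72172 with EGCG. The log2 fold change of the sum was 0.07 (SE 0.083, adjusted p = 0.805, edgeR). H2-K1 and H2-D1 together made up 77.9% ± 0.475 of the summed counts in control and 80.1% ± 0.021 with EGCG (SD, n = 2).

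B2m, the light chain shared by all classical class I molecules, was at 725 and 875 CPM in control and at 787 and 789 CPM with EGCG. Both EGCG libraries lay between the control libraries, whose SD was 106 CPM. The log2 fold change was -0.02 with a 95% interval of -0.22 to 0.17 (SE 0.090, adjusted p = 0.952). B2m shares none of its 31-base words with another gene (0% of them), so its counts do not carry the uncertainty of the heavy chains.

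Tap1 and Tap2 form the transporter that carries peptides into the endoplasmic reticulum. Tap1 was at 209.5 and 250.1 CPM in control and at 219.8 and 237 CPM with EGCG, with both EGCG libraries between the control libraries. Its log2 fold change was -0.0082 with a 95% interval of -0.20 to 0.18 (SE 0.089, adjusted p = 0.980). Tap2 was at 137 and 149.97 CPM in control and at 149 and 154 CPM with EGCG. The groups overlapped in this gene too, and the log2 fold change was 0.08 with a 95% interval of -0.09 to 0.24 (SE 0.077, adjusted p = 0.736). Tap1 overlaps Psmb9 on the opposite strand over 212 exonic bases, which are 3.87% of the exonic length of Tap1 and 5.79% of that of Psmb9. The deposited counts are labelled as not stranded, so reads from those bases cannot be assigned to either gene.

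Tapbp encodes tapasin, which bridges the transporter and the class I molecule. It was at 319.7 and 353 CPM in control and at 317.5 and 346 CPM with EGCG, and the libraries of the groups overlapped. The log2 fold change was -0.02 with a 95% interval of -0.19 to 0.15 (SE 0.081, adjusted p = 0.952). The antisense gene model Gm19412, which had 0 counts in every library, overlaps 904 exonic bases of Tapbp (24.9% of its exonic length), and the counts of Tapbp may lack reads from those bases. Tapbp also overlaps Zbtb22, a protein-coding gene on the same strand, over 149 exonic bases (4.11%). Zbtb22 had 1563 to 1746 counts in the libraries, and reads from the shared bases cannot be assigned to either gene.

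The immunoproteasome subunits replace the standard catalytic subunits in the proteasome core. Psmb8, which takes the place of Psmb5, was at 104 and 124 CPM in control and at 119.3 and 119.6 CPM with EGCG. Psmb9, which takes the place of Psmb6, was at 99.2 and 114 CPM in control and at 113 and 121 CPM with EGCG. Psmb10, which takes the place of Psmb7, was at 36.0 and 35.9 CPM in control and at 33.4 and 36.7 CPM with EGCG. In all 3 genes the libraries of the groups overlapped. The log2 fold changes were 0.07 for Psmb8 (95% interval -0.12 to 0.26, adjusted p = 0.813), 0.13 for Psmb9 (-0.05 to 0.31, adjusted p = 0.572) and -0.04 for Psmb10 (-0.24 to 0.16, adjusted p = 0.917).

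The standard subunits did not pass the test either. Psmb5 was at 18.5 and 19.6 CPM in control and at 15.2 and 20.4 CPM with EGCG (log2 fold change -0.09, SE 0.136, adjusted p = 0.837). Psmb6 was at 84.6 and 85.6 CPM in control and at 87.6 and 93.6 CPM with EGCG (log2 fold change 0.09, SE 0.077, adjusted p = 0.688). Psmb7 was at 48.3 and 55.2 CPM in control and at 56.6 and 60.2 CPM with EGCG, with a log2 fold change of 0.18 (SE 0.091, adjusted p = 0.470). In Psmb6 and Psmb7 both EGCG libraries were above both control libraries.

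The balance of inducible and standard subunits was followed as the ratio of their counts per kilobase of exonic length. Psmb8 over Psmb5 was 1.49 and 1.69 in control and 2.08 and 1.56 with EGCG, a mean of 1.59 ± 0.139 against 1.82 ± 0.373 (SD, n = 2), and the groups overlapped (two-sided exact permutation test, p = 0.667). The mean log2 difference was 0.18, and leaving out EGCG replicate 1 turned it to -0.028, whereas it was 0.093 when control replicate 1 was left out and 0.39 when EGCG replicate 2 was. Psmb9 over Psmb6 was 0.600 and 0.683 in control and 0.658 and 0.663 with EGCG, with both EGCG values between the control values (exact p = 1). The mean log2 difference was 0.046, and it turned to -0.048 when control replicate 1 was left out and was 0.14 when control replicate 2 was. Psmb10 over Psmb7 was 1.497 and 1.30 in control and 1.18 and 1.22 with EGCG, lower in both EGCG libraries, with a mean log2 difference of -0.22 (-0.12 without control replicate 1, -0.32 without control replicate 2). Its p in the exact permutation test was 0.333. That is the smallest this test can give with 2 against 2 libraries, so no ratio could reach 0.05 in it. Psmb5 shares 71.7% of its words with other genes, and 59.8% of its words occur in the gene model Gm3375, so the level of the Psmb8 over Psmb5 ratio is uncertain.

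**Figure D2:**
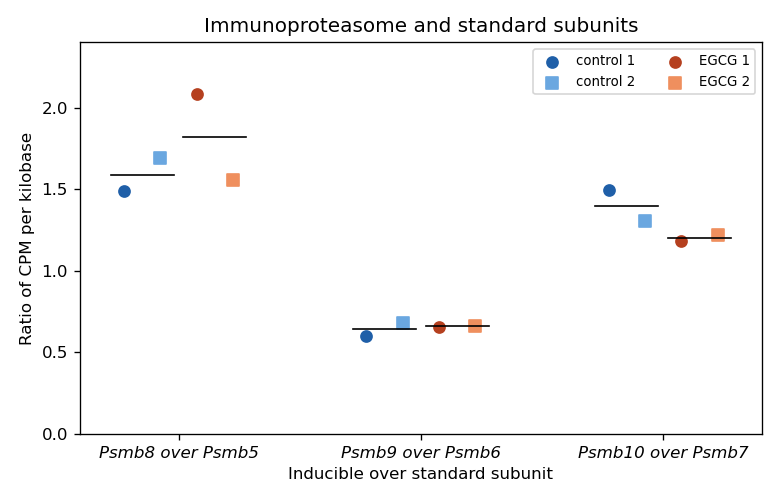
Ratio of each immunoproteasome subunit to its standard counterpart in each library, as counts per kilobase of exonic length, with points for the 2 control and 2 EGCG libraries and a bar for each group mean. Psmb10 over Psmb7 is lower in both EGCG libraries, and in the other ratios the groups overlap.

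Nlrc5, the transactivator of the class I genes, was the single class I gene with an unadjusted p under 0.05. It was at 18.4 and 20.99 CPM in control (336 and 375 counts) and at 13.6 and 17.97 CPM with EGCG (247 and 321 counts). Both EGCG libraries were below both control libraries, although EGCG replicate 2 came close to control replicate 1. The log2 fold change was -0.32 with a 95% interval of -0.61 to -0.02 (SE 0.138, unadjusted p = 0.0369), a fold of 0.802, and the adjusted p was 0.378, so it was not called. The value rested on EGCG replicate 1: it was -0.13 without that library (adjusted p = 0.833) and -0.53 without EGCG replicate 2 (adjusted p = 0.0518, edgeR). All 7 tested endothelial markers were also lower with EGCG (median log2 fold change -0.75, 6 of them with groups that did not overlap, against 21.2% of all tested genes), as were 6 of 6 monocyte and 7 of 8 macrophage markers. Other lists leaned the opposite way, with 6 of 7 B cell markers (median 0.16), 5 of 7 tested T and NK cell markers and 9 of 12 MDSC and neutrophil markers higher with EGCG. Emcn, the least abundant marker of the endothelial list, was not tested and had 1 and 2 counts in control and 5 and 0 with EGCG. The part of these cells in the Nlrc5 value was not tested.

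**Figure D3:**
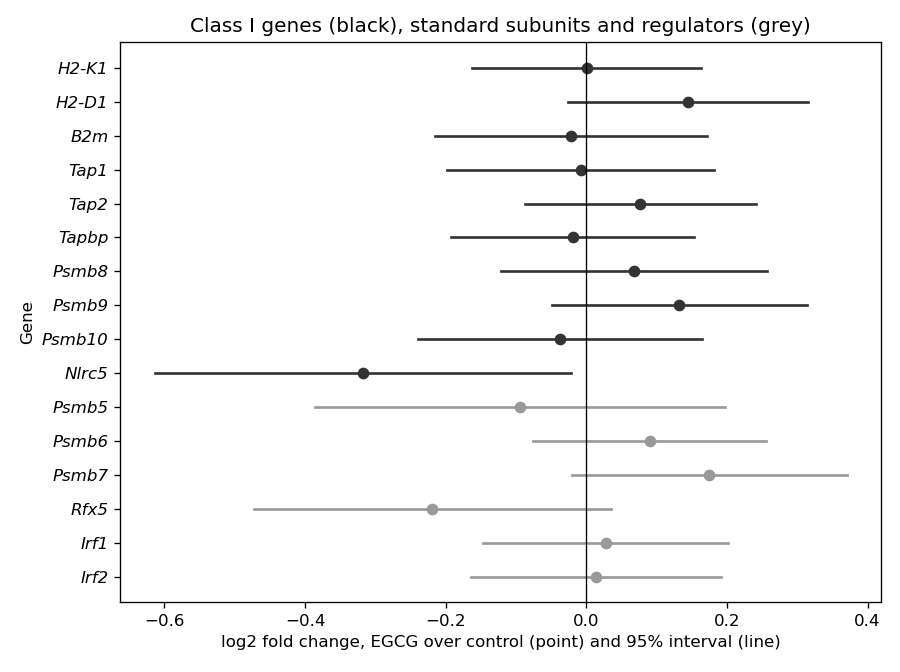
Log2 fold change of EGCG against control for the class I genes (black) and for the standard subunits and known regulators (grey), with 95% intervals from edgeR's fit. The intervals of 9 class I genes include 0 and lie between -0.24 and 0.32, and that of Nlrc5 lies from -0.61 to -0.02.

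Levels were compared between genes as CPM per kilobase of exonic length, averaged over the 4 libraries. B2m (924 ± 71.8, SD, n = 4) and H2-D1 (872 ± 53.7) were at the top, and B2m was above H2-D1 in 3 of 4 libraries, so their order was within their spread. H2-K1 followed at 275 ± 6.83, and the counted level of H2-D1 was 3.17 times that of H2-K1, with the uncertainty of the heavy chain counts given above. Tapbp was at 92.1 ± 5.01, and H2-K1 was 2.99 times as high. Tap1 (41.9 ± 3.30), Tap2 (39.0 ± 1.92), Psmb8 (34.5 ± 2.69) and Psmb9 (30.6 ± 2.53) formed a group in which the ranges of neighbors overlapped. Their order was the same in all 4 libraries, but it rests on the exonic length used: antisense gene models overlap 14.1% (Gm15821) and 4.36% (Gm20496) of the exonic length of Tap2 and 14.7% (Gm20496) of that of Psmb8, and an order that allows for these bases was not computed. Psmb10 was lower at 20.8 ± 0.837. Nlrc5 was lowest at 2.09 ± 0.360, and the level of Psmb10 was 9.97 times that of Nlrc5.

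The libraries also differed within groups. Control replicate 2 was above control replicate 1 in 9 of the 10 class I genes (49.7% of all tested genes), all but Psmb10, and EGCG replicate 2 was above EGCG replicate 1 in 10 of 10 (7532 of the 14682 tested genes). The summed level of the 10 genes was 4543 and 4922 CPM in control and 4858 and 5059 CPM with EGCG. The highest library was control replicate 2 for 5 genes and EGCG replicate 2 for the other 5. The lowest was control replicate 1 for 6 and EGCG replicate 1 for 4.

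The pathway was extended by a list of 57 further genes, grouped by role, of which 56 had enough counts to be tested. None was called by edgeR (0 of 56, against 0.150% of all tested genes). An unadjusted p under 0.05 was found for 5, all of them lower with EGCG (7.02% of all tested genes), and 0 were higher. Of the 56, 34 were lower and 22 higher, with a median log2 fold change of -0.03 and a range from -0.31 to 0.23. The median was 0.019 with the length correction (28 of 56 lower) and 0.0043 without EGCG replicate 1 (27 lower), so its direction was not stable. The libraries did not overlap in 14 genes that were lower (21.2% of all tested genes) and 10 that were higher (21.5% of all).

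By role, the 15 tested class I chains other than H2-K1 and H2-D1 had a median log2 fold change of -0.08, and 10 were lower. They include the nonclassical molecules of the Q, T and M regions, and Mr1 and Cd1d1, which lie outside the MHC. H2-T24 was at 146 and 176 CPM in control and at 131 and 134 CPM with EGCG, below control in both libraries. Its log2 fold change was -0.28 (SE 0.088, unadjusted p = 0.0074, adjusted p = 0.230). The 6 chaperones and loading factors had a median of -0.13, and 5 were lower, among them Tapbpl, a tapasin homolog (-0.26, adjusted p = 0.386). The 7 peptidases that trim peptides had a median of -0.03. Among them Lnpep, an aminopeptidase used in cross-presentation, was at 81.3 and 83.9 CPM in control and at 72.6 and 69.6 CPM with EGCG (log2 fold change -0.22, SE 0.078, adjusted p = 0.289). With the length correction its value was -0.058.

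The 7 proteasome partners, with the standard subunits and the PA28 activators, had a median of 0.02, and 4 were higher. The 21 upstream regulators, from interferon receptors to the factors at the promoters, had a median of -0.0067, with 11 lower and 10 higher. Stat2, which carries type I interferon signals, was at 62.3 and 73.1 CPM in control and at 52.1 and 56.9 CPM with EGCG, below control in both libraries. Its log2 fold change was -0.31 (SE 0.095, unadjusted p = 0.0051, adjusted p = 0.221). Jak2, a kinase of the interferon-γ receptor, was also below control in both libraries (-0.21, unadjusted p = 0.0231, adjusted p = 0.332). Without control replicate 1, Stat2 (-0.42, adjusted p = 0.0449) and H2-T24 (-0.40, adjusted p = 0.0265) passed the test, and without any other single library neither did. Without control replicate 2 the values were -0.19 for Stat2 (adjusted p = 0.427) and -0.13 for H2-T24 (adjusted p = 0.567).

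Irf1 and Irf2, which bind interferon response elements of class I promoters, had log2 fold changes of 0.03 (adjusted p = 0.928) and 0.01 (adjusted p = 0.968). In both the groups overlapped. Rfx5, a partner of NLRC5 at the promoter, was at 16.05 and 16.2 CPM in control and at 13.8 and 13.9 CPM with EGCG, below control in both libraries (log2 fold change -0.22, SE 0.118, adjusted p = 0.491). The 6 other RFX, CREB and NF-Y genes were on both sides of 0. Rfxank was at 0.17 (adjusted p = 0.617), Nfyb at 0.18 (adjusted p = 0.472) and Rfxap at 0.16, all with EGCG libraries above control. Nfyc was at -0.12, Creb1 at -0.03 and Nfya at -0.0098. Without control replicate 1 the values were 0.10 for Rfxank and 0.11 for Nfyb. Without control replicate 2 they were 0.25 and 0.27.

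**Figure D4:**
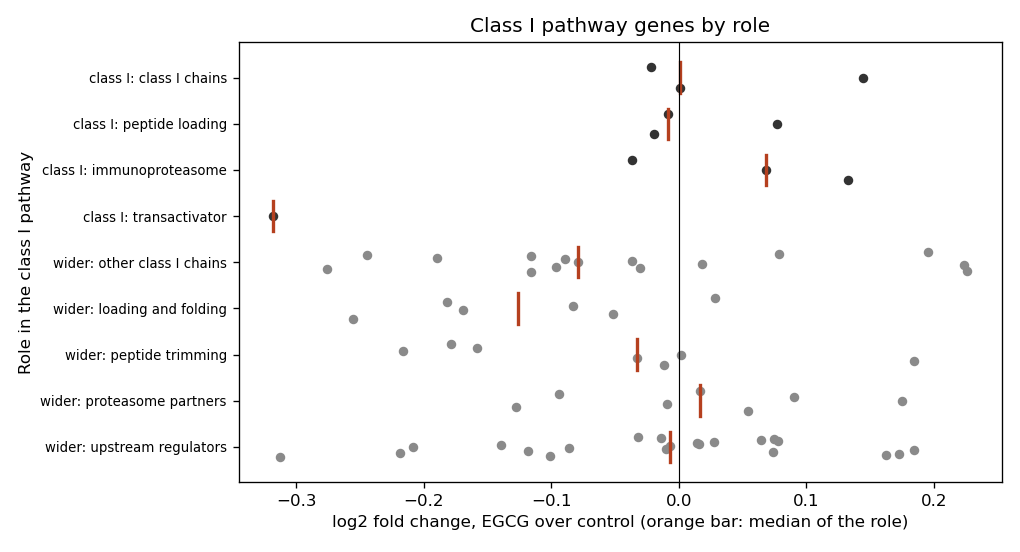
Log2 fold change of EGCG against control for each class I gene and each tested gene of the wider pathway, 1 point a gene, by role, with a line at the median of each role. The values of the 56 further genes lie between -0.31 and 0.23 and scatter on both sides of 0.

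The class II genes and interferon-stimulated genes were set beside the class I genes, since they share regulators with them. Of 9 class II genes, 0 were called (against 0.150% of all tested genes), 4 were lower and 5 higher. Their median log2 fold change was 0.0010. Without Ciita, the class II counterpart of Nlrc5, the values of the other 8 lay between -0.03 and 0.04. Ciita itself was at 35.4 and 26.6 CPM in control and at 22.7 and 27.5 CPM with EGCG, so the groups overlapped. Its log2 fold change was -0.31 (SE 0.135, unadjusted p = 0.0392, adjusted p = 0.387). The value rested on single libraries: it was -0.08 without control replicate 1 (adjusted p = 0.965) and -0.17 without EGCG replicate 1 (adjusted p = 0.727), but -0.50 without control replicate 2 (adjusted p = 0.0249, edgeR). It was -0.19 with the length correction.

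The interferon-stimulated genes were all on one side of 0. All 30 were lower with EGCG in the fit (49.4% of all tested genes), with a median log2 fold change of -0.34, although EGCG replicate 2 was above control replicate 1 in 19 of the 30. Of the 30, 2 were called (0.150% of all tested genes), Oas2 (-0.48, adjusted p = 0.039) and Oasl2 (-0.57, adjusted p = 0.042), both of which belong to the antiviral oligoadenylate synthetase family. Both calls were kept with each library left out, but both were lost with no filter (adjusted p = 0.562 for each), with a minimum count of 50 (0.054 and 0.062), under the length correction (0.077 and 0.082), under that correction with a replicate block (0.093 and 0.128) and with upper-quartile scaling (0.055 and 0.059). Their log2 fold changes moved little in these settings, within -0.48 to -0.44 for Oas2 and -0.57 to -0.50 for Oasl2. Oas3, of the same family, was below control in both EGCG libraries but did not pass the test (-0.39, adjusted p = 0.171). It was -0.19 without control replicate 2 (adjusted p = 0.348), and it passed at -0.55 without control replicate 1, at -0.49 without EGCG replicate 2 and with library size only (adjusted p = 0.028). The groups did not overlap in 11 of the 30, all lower (21.2% of all tested genes). Control replicate 2 was the highest library in 30 of 30 (20.1% of all tested genes). As medians relative to the control mean on the log2 scale, these genes stood at -0.24 and 0.24 in control and at -0.47 and -0.17 with EGCG. The class I genes stood at -0.08 and 0.08 in control and at -0.03 and 0.05 with EGCG, with the same order of replicates in each group. The difference between the lists was not tested, and the interferon-stimulated genes were listed with earlier results of these data known.

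**Figure D5:**
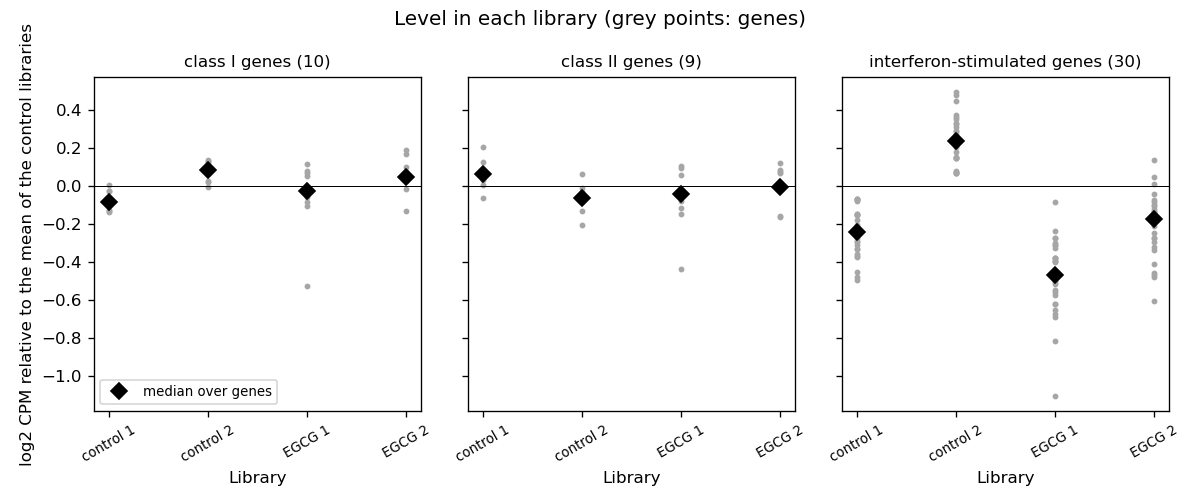
Level of each gene in each library relative to the control mean on the log2 scale, for the class I, class II and interferon-stimulated genes, with the median of each list in each library. The class I medians lie between -0.08 and 0.08, and those of the interferon-stimulated genes between -0.47 and 0.24 with control replicate 2 highest.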

How the data were processed

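RNA was sequenced from spleen-sorted MDSCs treated in vitro with control medium or EGCG (2 libraries each, grouped by their labels). STAR 2.6.0c was used by the authors for alignment to GRCm38. They counted reads per gene with featureCounts 1.6.2 (Ensembl release 91) and deposited whole-number counts without normalization. bcl2fastq 1.8.4 and FastQC are also named in the submitters' processing notes. The deposited counts are labelled as not stranded. All 4 count columns were mapped to samples, with 0 columns of other samples and 0 lines without a gene name.

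Genes were kept where filterByExpr, at a minimum count of 10, found enough reads, and TMM scaling was applied. The main comparison of EGCG against control was the quasi-likelihood test of edgeR 4.0.16 in its legacy form, with no block. Benjamini-Hochberg adjustment covered all 14682 tested genes, the threshold was 0.05, and every adjusted p in the text comes from edgeR unless another tool is named. Standard errors are the size of the log2 fold change over the root of F, and 95% intervals use the degrees of freedom of the same test. Exonic lengths, positions, exon overlaps and shared 31-base words were computed from the GENCODE M21 annotation of GRCm38. It contained 53360 of the 53465 gene identifiers, and 16 tested genes had no length. Promoter windows came from RefSeq (GRCm38.p6). With 2 libraries a group, the spread between replicates limits the precision more than the 17767318 to 18390385 counts per library do.

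The class I genes, gene lists and tests were chosen with earlier results of these data known. Named are all 10 class I genes, Psmb5, Psmb6 and Psmb7, the factors Irf1, Irf2 and Rfx5, and, of the wider pathway and of the class II and interferon lists, the genes past the threshold and up to 3 in each direction with the smallest p among those with at least 10 counts in every library. The result of 1 gene that this rule names is not reported here, though the counts over the pathway list include it. Tapbpl, Jak2, Rfxap, Nfyc, Creb1 and Nfya were named after their values were seen. Nrdc was matched through an older symbol. Alternatives were other filters and scalings, the robust and the newer fit in edgeR, DESeq2 1.42.0, a replicate block, a length correction (loess with a span of 0.4), heavy chains summed, and each library left out in turn. The edgeR test was first run on simulated counts, and the length correction was not run on them. Other tools were R 4.3.3, limma 3.58.1, Python 3.11.15, pandas 2.3.3, NumPy 2.4.6 and matplotlib 3.10.9.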

Additional observations from a re-analysis of the deposited data

How the results depend on the processing

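None of the 10 class I genes was called under any of the 16 alternatives. Of their 158 log2 fold changes, 145 kept the sign and 13 did not, and the lowest adjusted p was 0.0518 (Nlrc5 without EGCG replicate 2). With the heavy chains summed, H2-K1 and H2-D1 have no values of their own. Nlrc5 stayed lower throughout, from -0.35 to -0.22 under the processing alternatives (adjusted p 0.252 to 0.767). With 2 libraries a group the intervals stay wide, and Nlrc5, the lowest of the 10 genes, has the widest.

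The number of genes called, 22, was 0 with no filter, 10 with a minimum count of 50, 151 with library size only, 11 with upper-quartile scaling, 64 with DESeq2, 63 with the robust fit, 5 with the length correction and 4 with the length correction and the replicate block, and 77 to 354 with 1 library left out. The cause of these differences was not tested. Of the calls, 90.9% were lower with EGCG, against 76.6% in DESeq2 and 60% with the length correction.

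The median of the pathway genes was 0.019 with the length correction and 0.0203 with the block added. Signs turned in H2-K1 (-0.0042 with a minimum count of 50, -0.034 with library size only), Tap1 (0.036 with the length correction, 0.042 with the block added), Irf1 (-0.0063) and Irf2 (-0.021), both with library size only, a setting that moved the median of all genes to -0.03.

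With each library left out in turn, 2 to 7 of the class I genes were lower, and their median was -0.041 to 0.12. The log2 fold change ranged from -0.035 to 0.039 for H2-K1, -0.15 to 0.12 for B2m, -0.13 to 0.13 for Tap1, 0.017 to 0.15 for Tap2, -0.085 to 0.056 for Tapbp, -0.054 to 0.21 for Psmb8, 0.039 to 0.24 for Psmb9, -0.10 to 0.031 for Psmb10, -0.32 to 0.11 for Psmb5, 0.042 to 0.14 for Psmb6, 0.086 to 0.28 for Psmb7, -0.058 to 0.13 for Irf1 and -0.086 to 0.11 for Irf2.

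The libraries share replicate numbers but, over all tested genes, deviated together little (correlation 0.034 over 2 pairs). On that ground the numbers were not taken as pairs in the main fit. It does not describe every list. Replicate 2 was above replicate 1 in 9 (control) and 10 (EGCG) of the 10 class I genes. The same held in 30 and 27 of the 30 interferon-stimulated genes, and in 1 and 6 of the 9 class II genes. A replicate block gave 30 called genes, 0 of them class I genes, and -0.32 for Nlrc5.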
